A study of Sus scrofa with 6 samples.

Results

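Long non-coding RNAs (lncRNAs) that already carried an Ensembl transcript identifier were described here in 2 skeletal muscles of the pig. A transcript was taken when its deposited status was annotated lncRNA and its level exceeded 0.1 FPKM in 1 or more of the 6 libraries. FPKM is the number of fragments of a transcript scaled to its length and to the mapped fragments of the library. Of 1885 annotated lncRNA transcripts listed, 1198 (63.6%) met the rule, 687 did not and 89 of the latter were listed at 0 in all 6 libraries. The 1198 transcripts came from 1016 genes and made up 8.79% of the 13635 lncRNAs, annotated or assembled, that exceeded 0.1 FPKM, and 52102 transcripts of any kind did so. The members were thus chosen by their measured FPKM, and the levels below are a description.

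The muscles were longissimus thoracis (LT), the long muscle of the back, and semitendinosus (ST), a muscle of the hind limb. Both were taken from 3 Min pigs, a local Chinese breed, at an age of 210 days, with wild type (WT) given as genotype for all samples and no treatment named. The sources used here do not state which replicate number is which pig. Each library held the RNA of 1 muscle of 1 pig after removal of rRNA. Sex and litter of the pigs are not given in the sources used here.

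LncRNAs are transcripts longer than the small RNA classes that are not thought to encode a protein. Some stay in the nucleus and organise nuclear bodies, some act on the gene next to them or are by-products of its promoter, and some are the precursors of microRNAs (miRNAs). In muscle the best known of them carry miRNAs that help myoblasts to differentiate.

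Not all sums of marker genes separated the muscles. The summed level of 5 slow-fibre markers (troponins and myosin light chains of slow fibres) ran from 4289 to 6560 FPKM in LT and from 5671 to 36227 FPKM in ST, and that of 3 fast-fibre troponins from 19260 to 25584 FPKM in LT and from 1001 to 16681 FPKM in ST. The slow-fibre sums overlapped between the muscles and the fast-fibre sums did not. ST replicate 2 stood apart: TNNC1, the slow troponin C, was at 2463 FPKM there against 14922 and 12953 FPKM in ST replicates 1 and 3, and TNNC2, its fast counterpart, at 6139 against 1585 and 383 FPKM. Markers of endothelium (PECAM1, CDH5 and KDR) summed to 36.6 to 57.4 FPKM in LT and 98.6 to 137 FPKM in ST, and those of smooth muscle to 37.3 to 56.7 and 64.5 to 79.9 FPKM, both without overlap. Sums for adipocyte, fibroblast, leukocyte and erythroid markers overlapped between the muscles, and all 3 muscle fibre markers with an entry (ACTA1, CKM and NEB) were abundant in every library. Mitochondrial transcripts held 6.47% ± 1.48 of all FPKM in LT and 13.9% ± 1.65 in ST (SD, n = 3). The part of these differences in the results below was not tested. In whole muscle, fewer cells of a type and less RNA per cell cannot be told apart.

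Most annotated lncRNAs were present at low levels, and a handful carried nearly all of the signal. The median of the mean level over the 6 libraries was 0.194 FPKM, against 0.132 FPKM for unannotated lncRNAs and 0.951 FPKM for annotated mRNAs. A mean above 1 FPKM was reached by 183 of them (15.3%), against 5.43% of the unannotated lncRNAs and 49.0% of the annotated mRNAs, and 29 exceeded 10 FPKM and 6 exceeded 100 FPKM. At the other end, 345 had a mean of 0.1 FPKM or less.

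The 3 members closest above the limit were ENSSSCT00000090564, ENSSSCT00000059629 and ENSSSCT00000068198, whose highest libraries stood at 0.100046, 0.10009 and 0.10107 FPKM. The 3 annotated lncRNAs closest below it, ENSSSCT00000082367, ENSSSCT00000078591 and ENSSSCT00000079861, reached 0.099038, 0.098826 and 0.098386 FPKM. The limit thus cut through a continuous range.

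Breadth of expression lay between that of unannotated lncRNAs and that of mRNAs. All 6 libraries exceeded 0.1 FPKM for 436 members (36.4%) and exactly 1 library did for 207 (17.3%). The shares were 19.9% and 25.3% for the unannotated lncRNAs and 56.6% and 11.8% for the annotated mRNAs. In both muscles 884 members passed, 107 did so in LT alone and 207 in ST alone. The members of 1 muscle alone were low, with medians of their highest library of 0.146 FPKM for LT and 0.158 FPKM for ST, and only 13 and 19 of them passed in all 3 libraries of that muscle. In the libraries of LT 750, 784 and 804 members exceeded 0.1 FPKM, and in those of ST 874, 747 and 805, so the muscles overlapped (exact permutation test, 2-sided, p = 0.6, n = 3).

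The most abundant member was not a lncRNA by its own annotation. ENSSSCT00000054024 (chr1:179456985-179457284, plus strand, 1 exon of 300 bases, assembly Sscrofa11.1 as for all positions below) is of type misc_RNA in the files and overlaps a RefSeq gene for the RNA of the signal recognition particle, the abundant cytoplasmic RNA that helps to send nascent secretory proteins to the endoplasmic reticulum. It stood at 22154, 23341 and 10739.8 FPKM in LT and at 12678, 9074 and 9949.8 FPKM in ST. LT replicates 1 and 2 were the highest and LT replicate 3 lay within the range of ST. It alone made up 87.7% ± 5.60 of the summed FPKM of all members in LT and 80.4% ± 2.34 in ST. With it, members carried 5.72% ± 1.69 of the FPKM of nuclear transcripts in LT and 3.87% ± 0.500 in ST (p = 0.2, exact permutation test), and without it 0.642% ± 0.0740 and 0.753% ± 0.0251 (p = 0.1, the smallest p that 3 against 3 libraries allow). The order of the muscles in this share was therefore set by that 1 transcript.

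In all, 4 members were of type misc_RNA and 1194 of type lncRNA. The second most abundant of the 4, ENSSSCT00000063271 (chr1:179671803-179672102, 300 bases), stood at 474, 496 and 121 FPKM in LT and at 168, 126 and 244 FPKM in ST. The label of the set thus holds for all but 4 of its transcripts, although those 4 include the members ranked 1 and 3 by level.

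**Figure D1:**
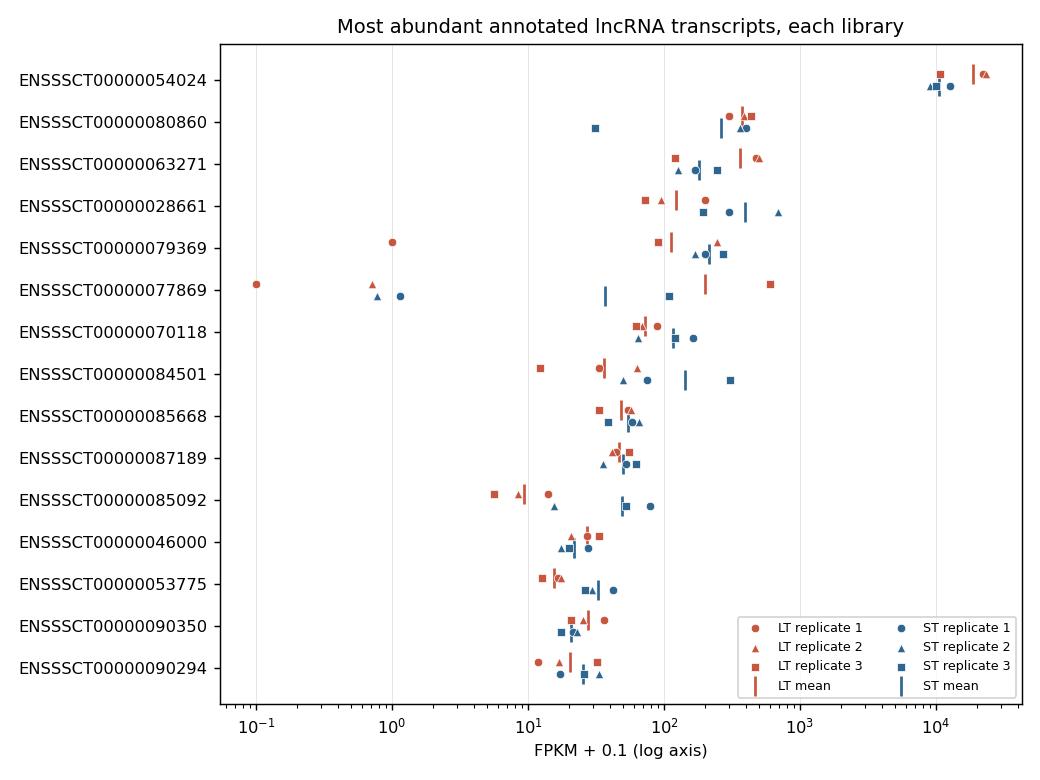
The 15 annotated lncRNA transcripts with the highest mean level, with FPKM + 0.1 in each library on a log axis (red LT, blue ST, symbols for the replicate numbers, vertical bars for muscle means). ENSSSCT00000054024 lies far to the right of all others, and ENSSSCT00000077869 and ENSSSCT00000079369 spread widely between libraries, from 0 to 604 FPKM and from 0.907 to 269.7 FPKM.

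Next came a single locus on chromosome 2. Gene ENSSSCG00000048856 has 3 member transcripts on the minus strand of chr2:6752140-6757157 and overlaps RefSeq LOC102163816. ENSSSCT00000080860 (3639 bases) stood at 301, 385 and 440.0 FPKM in LT and at 400.0, 359 and 30.9 FPKM in ST. ENSSSCT00000079369 (1041 bases) stood at 0.907, 245 and 89.8 FPKM in LT and at 201, 168 and 269.7 FPKM in ST. ENSSSCT00000077869 (2121 bases) stood at 0, 0.606 and 604 FPKM in LT and at 1.04, 0.668 and 108 FPKM in ST. The 3 transcripts overlap one another, and ST replicate 3, the lowest library of the first, was the highest of the second.

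Their shares of the locus swung from 7.54 to 99.7%, from 0.300 to 65.9% and from 0 to 53.3%. Summed over the 3 transcripts, the locus stood at 302, 631 and 1134 FPKM in LT and at 602, 528 and 409 FPKM in ST, and the muscles overlapped (log2 fold change of ST against LT -0.25, SE 0.44, limma adjusted p = 0.824). Its neighbour ENSSSCT00000090294 (chr2:6797358-6803782, minus strand, RefSeq LOC100513133, 19184 bp from FRMD8) stood at 11.7, 16.8 and 32.3 FPKM in LT and at 17.2, 33.2 and 25.8 FPKM in ST, again with overlap.

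This instability was not the rule among multi-transcript genes. Of 40 lncRNA genes with 2 or more member transcripts and a summed level above 1 FPKM in every library, 30 had the same leading transcript in all 6 libraries and 10 did not. At ENSSSCG00000035352 (chromosome 5, 31622 bp or more from PPARA, the nuclear receptor that drives fatty acid oxidation), ENSSSCT00000079197 held 18.8 to 60.6% of the locus and ENSSSCT00000043059 15.6 to 64.8%. Yet the locus as a whole stayed between 5.28 and 7.39 FPKM in all 6 libraries. At ENSSSCG00000050971 (chromosome 7, near RTL1, a gene of the imprinted DLK1 domain), ENSSSCT00000068248 led in LT replicate 2 with 56.2% and ENSSSCT00000079930 led in ST replicate 1 with 56.2%, while the locus ranged from 2.43 to 8.17 FPKM. How fragments were shared between overlapping transcripts was decided in the authors' quantification, so a level of 1 such transcript is less certain than the sum over its gene.

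Of the other abundant members, several shared their position with a protein-coding gene of RefSeq. ENSSSCT00000028661 (chr9:64031854-64037769, plus strand, 5 exons, 3212 bases) overlaps BTG2, an antiproliferative gene of the immediate response to stress. It stood at 199, 94.2 and 71.8 FPKM in LT and at 298, 694 and 194 FPKM in ST, where replicate 3 lay just under the highest LT value. The means were 122 ± 67.7 and 395 ± 264 FPKM (SD, n = 3; log2 fold change 1.63, SE 0.56, adjusted p = 0.453). ENSSSCT00000070118 (chr9:73721057-73726287, plus strand) overlaps GNG11, a G protein gamma subunit, and stood at 88.4, 68.5 and 62.0 FPKM in LT and at 163, 64.6 and 121 FPKM in ST. ENSSSCT00000087189 (chr7:23933386-23935283, plus strand) overlaps HSPA1L, a chaperone gene of the HSP70 family, and ranged from 35.3 to 61.9 FPKM over the 6 libraries. Its muscle means were 46.6 ± 7.19 FPKM in LT and 49.8 ± 13.5 FPKM in ST (SD, n = 3).

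A locus near the start of chromosome 2 varied widely between the libraries of each muscle. ENSSSCT00000084501 (chr2:1381841-1384446, minus strand, 7 exons) lies 28891 bp from MRPL23 and 64241 bp from TNNT3, the fast troponin T gene. In human and mouse the imprinted lncRNA H19 lies near these genes, and identity with it was not tested here. ENSSSCT00000084501 stood at 33.2, 62.9 and 12.1 FPKM in LT and at 74.5, 50.2 and 305 FPKM in ST. ST replicate 3 alone exceeded 100 FPKM, and the muscles overlapped. ENSSSCT00000081374, annotated on the other strand of the same locus, stood at 2.67, 5.76 and 3.30 FPKM in LT and at 6.53, 3.90 and 23.1 FPKM in ST, with the same library on top. The libraries were made with a kit that keeps strand, the strand setting of the counting is not given in the sources used here, and whether reads of these opposite transcripts were kept apart was not tested.

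Among the 15 most abundant members, 2 had ST values that all exceeded the LT values, against 9.87% of all transcripts. ENSSSCT00000085092 (chr13:95228051-95234377, minus strand, RefSeq LOC106505720, 73783 bp from the phospholipase gene PLCH1) stood at 13.9, 8.31 and 5.55 FPKM in LT and at 78.9, 15.4 and 52.5 FPKM in ST. ENSSSCT00000053775 (chr14:89890260-89919537, plus strand, overlapping RefSeq C14H10orf71) stood at 16.6, 17.4 and 12.6 FPKM in LT and at 42.0, 29.5 and 26.2 FPKM in ST. Neither passed the limma test after adjustment (log2 fold changes 2.20, SE 0.65, adjusted p = 0.387, and 1.05, SE 0.25, adjusted p = 0.296).

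Annotated lncRNAs had few, long exons. The spliced length ran from 211 to 8902 bp with quartiles of 1403 and 3813 bp. Of the members, 558 (46.6%) had 2 exons, 311 had 3, 325 had 4 or more and 4, the misc_RNA transcripts, had 1. The median transcript had 812 bases per exon, against 184.5 for unannotated lncRNAs and 272 for annotated mRNAs. The annotated lncRNAs that did not exceed 0.1 FPKM were of like length (median 2527 bp) with fewer exons (mean 2.87, and 59.4% with 2 exons).

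The level went up slightly with exon number and not steadily with length. The median level was 0.177 FPKM for 2 exons, 0.190 FPKM for 3 exons and 0.247 FPKM for 4 or more, and the share that passed 0.1 FPKM in all 6 libraries was 32.6%, 37.0% and 42.2%. In 4 bins of nearly equal size by length, from the shortest to the longest, the medians were 0.152, 0.208, 0.222 and 0.193 FPKM. The longest member was ENSSSCT00000070837 (8902 bases, chr4:1225177-1236336, minus strand, 3145 bp from GLI4), which stood between 0.680 and 0.986 FPKM.

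**Figure D2:**
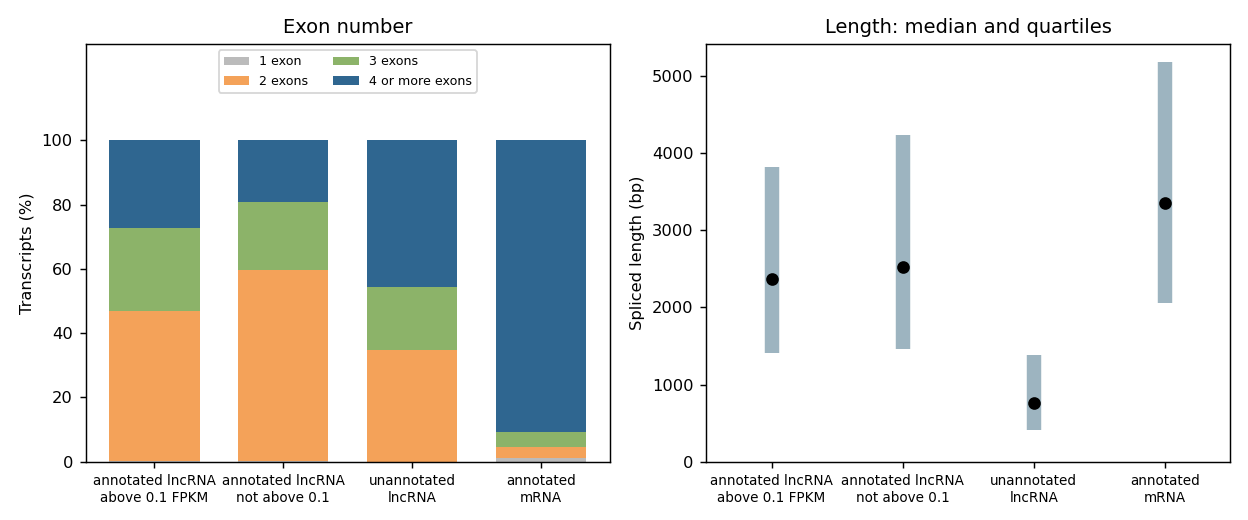
Exon number (left, percent of transcripts in each exon class) and spliced length in bp (right, dot for the median and bar over the interquartile range) of annotated lncRNAs above and not above 0.1 FPKM, unannotated lncRNAs and annotated mRNAs. Annotated lncRNAs have mostly 2 or 3 exons, and their median length lies between those of unannotated lncRNAs and of mRNAs.

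The members with the most exons carried symbols of protein-coding genes. ENSSSCT00000057527, with 30 exons over chr15:139957715-140023048, is assigned to HDLBP, the gene of the RNA-binding protein vigilin, and stood at 12.7, 12.3 and 11.5 FPKM in LT and at 14.1, 15.3 and 17.2 FPKM in ST. ENSSSCT00000008000 and ENSSSCT00000049627, with 18 and 17 exons, are both assigned to PHF20, a chromatin reader. The first of them stood between 3.92 and 5.53 FPKM, and the second exceeded 0 in LT replicate 2 alone, at 0.288 FPKM. In all, 47 members had a gene symbol, and 43 of these, from 30 genes, had the symbol of a protein-coding gene in RefSeq. The 47 were more abundant than members at large, with a median of 1.56 FPKM and 53.2% above 1 FPKM. None had a symbol on a list of 29 well-known lncRNAs or of the SNHG family, so known lncRNAs could not be looked up by name.

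Annotated lncRNAs lay close to protein-coding genes without overlapping those of the files. None of the 1194 transcripts of type lncRNA overlapped a protein-coding gene listed in the files. All 4 misc_RNA transcripts did, for example ENSSSCT00000054024 opposite to RPS29. The gap to the nearest protein-coding gene had a median of 7822.5 bp, against 22476 bp for annotated lncRNAs that did not exceed 0.1 FPKM and 16994.5 bp for unannotated lncRNAs between genes (lincRNAs). Starts in divergent arrangement, head to head within 5000 bp, were found for 319 members (26.6%), against 13.2% and 9.90% in those sets. These classes rest on protein-coding genes of the files alone, and ENSSSCT00000057527, assigned to HDLBP, counts among the divergent members. By RefSeq 37.1% of the members overlapped a protein-coding gene, against 30.6% and 19.3% in those sets. No protein-coding gene within 100000 bp was found for 129 members (10.8%), against 19.4% and 32.4%.

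**Figure D3:**
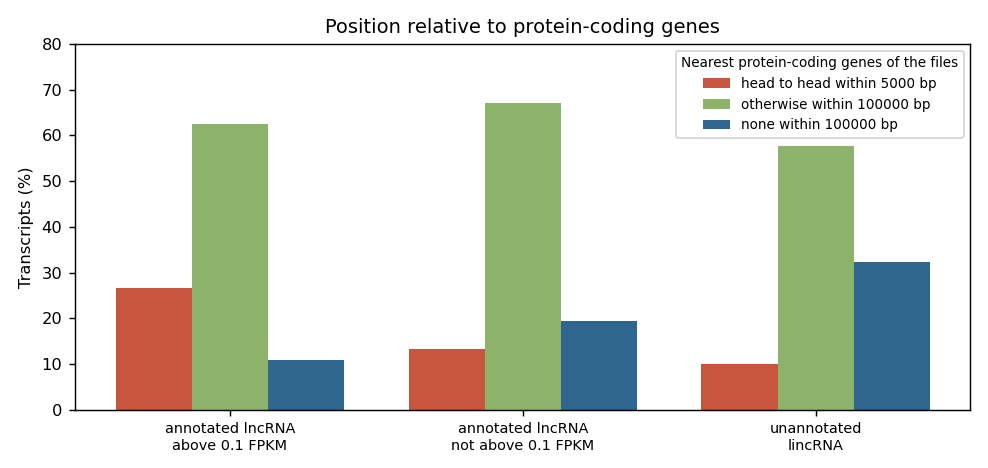
Percent of transcripts whose start lies head to head within 5000 bp of a protein-coding gene, that otherwise have one within 100000 bp, or that have none, for the 1194 members of type lncRNA, annotated lncRNAs not above 0.1 FPKM and unannotated lincRNAs. The divergent bar is highest for the members, at 26.7%.

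A window of 100000 bp on each side held a protein-coding gene for 1069 members, with a median of 2 genes, up to 24 genes around 1 member, and 2730 different genes in all. Divergent members were no more abundant than the rest, with median levels of 0.183 FPKM when divergent, 0.198 FPKM when otherwise within the window and 0.199 FPKM with no gene in it. The nearest genes of divergent members were themselves mostly active: 91.6% of 308 that could be paired with a measured gene had a neighbour above 1 FPKM, with a median of 8.16 FPKM, and 12 of the 308 members exceeded their neighbour. Of 631 others with a gene in the window, 76.7% had a neighbour above 1 FPKM and 79 exceeded it.

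The levels of member and nearest gene were nearly unrelated across pairs (Pearson r of log2 levels 0.11 for divergent pairs and 0.08 for other pairs within the window). The differences between ST and LT of member and neighbour had r = 0.39 over the divergent pairs, 0.31 over the other pairs in the window and 0.28 over the 99 pairs further apart. All pairs share the same 6 libraries and their scaling, so these are descriptions, and distant pairs gave nearly the same value as near ones.

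RefSeq, on the same assembly, placed the members differently. There 445 members (37.1%) overlapped a protein-coding gene, 555 a lncRNA gene and 11 a miRNA gene, and 919 overlapped a gene of any of these kinds. The RefSeq table used here gave no strand, so sense and antisense overlap cannot be told apart. The members on a RefSeq protein-coding gene had a median of 0.235 FPKM, with 19.3% above 1 FPKM, against 0.168 FPKM and 12.9% for the rest.

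Members that overlap a RefSeq miRNA gene by position, called hosts here, included those of the main muscle miRNAs. Whether they share its strand or are its precursor was not tested. ENSSSCT00000076521 (chr7:45967061-45980798, plus strand, 2 exons, 1607 bases) overlaps MIR206 and MIR133B, of which the former is restricted to skeletal muscle, and ranked 16 among all members. It stood at 18.7, 10.8 and 19.3 FPKM in LT and at 44.0, 8.74 and 30.4 FPKM in ST. ST replicate 2, which also had low slow-fibre markers, was the lowest of the 6 libraries and the other ST libraries were the highest. ENSSSCT00000070760 (chr17:61890965-61933235, plus strand) overlaps MIR1 and MIR133A-1, both enriched in striated muscle. It stood at only 0.605, 0.819 and 0.576 FPKM in LT and at 0.805, 0.487 and 1.18 FPKM in ST, and mature miRNAs were not analysed here.

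The host of MIR365-1 had the clearest gap among the hosts. ENSSSCT00000051883 (chr3:28895113-28908582, minus strand, 4 exons) stood at 34.7, 22.7 and 17.3 FPKM in LT and at 11.6, 7.33 and 5.64 FPKM in ST. Every LT value exceeded every ST value, with means of 24.9 ± 8.94 and 8.20 ± 3.09 FPKM (SD, n = 3), a log2 fold change of -1.60 (SE 0.37) and an adjusted p of 0.271. The hosts of the let-7 and MIR125B-1 cluster (ENSSSCT00000088640), of MIRLET7A-2 (ENSSSCT00000073671) and of the MIR421, MIR374B, MIR545 and MIR374A cluster on the X chromosome (ENSSSCT00000089220) stood at means of 1.25, 1.12 and 1.35 FPKM. The host of MIR155, an immune miRNA, was near the limit at 0.0612 FPKM (ENSSSCT00000084109).

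LT and ST were then compared, which addresses how the lncRNAs of a back muscle and a hind-limb muscle of the same pigs differ. No single annotated lncRNA transcript was called, while 7 lncRNA genes were called in a separate fit over genes. Of these genes 5 were higher in ST and 2 were lower. For 5 of the 7 genes there was 1 member transcript and nothing was summed, so that the gene and transcript values are identical and only the fit and its adjustment differ. ENSSSCG00000047558, 1 of the 5 higher in ST, passed the limit of 0.1 FPKM through ST alone. The other 6 passed it in both muscles, through 1 or more of their transcripts. The sums of ENSSSCG00000050859 and ENSSSCG00000047072 also hold transcripts that passed it in 1 muscle alone. The test was limma on log2(FPKM + 0.1), so that fold changes of low transcripts are understated, and a call needed a Benjamini-Hochberg adjusted p under 0.05 and a log2 fold change beyond 1 in size. Its p-values measure the spread between these samples.

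At the level of transcripts 0.146% of all 52102 tested were called (0.0825% higher in ST and 0.0633% lower) and 0 of the 1198 members were, with 0.0744 as the smallest adjusted p of a member. At an unadjusted p under 0.05 there were 113 members (9.43%) whatever the fold, against 9.69% of all transcripts. With the fold limit as well there were 95 members (7.93%, 53 higher in ST and 42 lower), against 6.95% of all transcripts (4.12% higher and 2.84% lower). After quantile normalization 42 of 96 such members were higher in ST, so the split by direction depended on the scaling. The values of the muscles did not overlap for 219 members (18.3%, 122 higher in ST and 97 lower) against 16.3% of all transcripts (9.87% higher and 6.44% lower). The median log2 fold change was 0.09 for the members and 0.09 for all transcripts tested. All of these shares were near those of all transcripts. They include the 107 and 207 members that exceeded 0.1 FPKM in LT or ST alone, which were listed through the muscle where they were higher.

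ST replicate 2 was the ST library closest to LT for 100 of the 219 members (45.7%), and for 44.1% of all transcripts that did not overlap. Without it 128 members passed the unadjusted limits, with 8.39% of all transcripts, and 1 member was called, with 0.178% of all transcripts. That member, ENSSSCT00000073142 (chr1:30776427-30802130, plus strand, 3 exons, 118678 bp from RPS12), named after its values were seen, stood at 12.1, 10.5 and 7.56 FPKM in LT and at 0.177, 3.93 and 0.0406 FPKM in ST. It was named because it was called without ST replicate 2, so its higher value in that library was part of the choice. The log2 fold change was -4.21 (SE 1.18, adjusted p = 0.368) with all libraries and -5.66 (SE 0.40, adjusted p = 0.0492) without ST replicate 2.

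**Figure D4:**
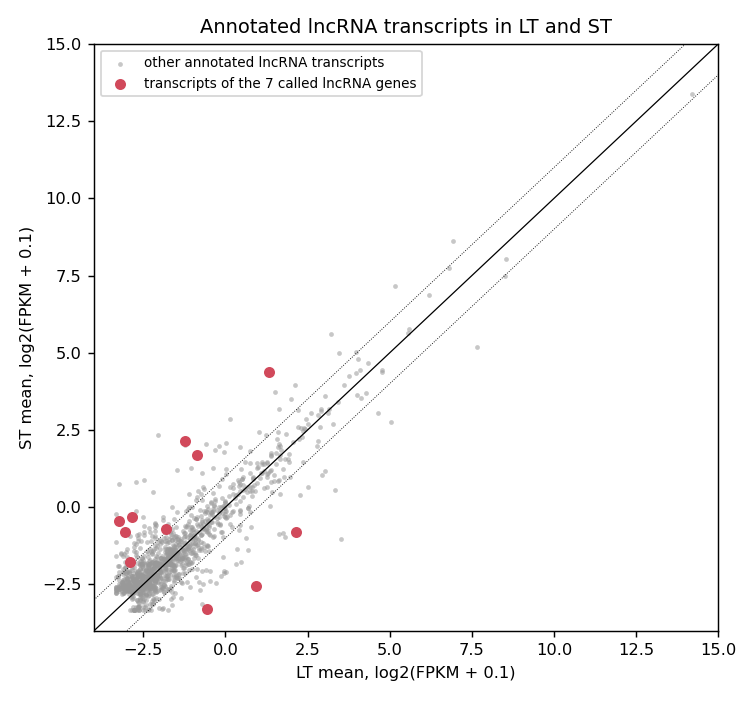
Mean level of each of the 1198 annotated lncRNA transcripts in LT (x axis) and ST (y axis), both as log2(FPKM + 0.1), with the solid line at equal levels and dotted lines at a difference of 1. Most transcripts lie along the line at low levels, and the transcripts of the 7 called genes (red) lie off it.

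Of 29108 genes tested by their summed FPKM, 0.467% were called, and of the 1016 lncRNA genes 7 (0.689%). At an unadjusted p under 0.05 with the fold limit there were 106 lncRNA genes, 10.4% of those tested, against 7.14% of all genes. The transcripts of the called genes that had 1 member transcript ranked 27, 92, 100, 128 and 371 by level among the 1198 members.

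Higher in ST was ENSSSCG00000041566, the most abundant of the 7. Its only member transcript ENSSSCT00000079661 (chr7:3055191-3057824, plus strand, 2 exons, 2367 bases) lies 2981 bp from the gene of PPP1R3G in the files, a glycogen-targeting subunit of protein phosphatase 1, and overlaps PPP1R3G and LYRM4 in RefSeq. It stood at 2.59, 2.66 and 1.91 FPKM in LT and at 21.3, 10.6 and 30.1 FPKM in ST. Every ST value exceeded every LT value (log2 fold change 2.95, SE 0.35, adjusted p = 0.0164). PPP1R3G itself stood at a mean of 2.06 FPKM in LT and 16.7 FPKM in ST (log2 fold change 2.83, SE 0.43, adjusted p = 0.0389), a difference of nearly the same size. Whether the 2 rows measure separate transcripts was not tested.

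A pair of called genes lay next to each other on chromosome 1. ENSSSCG00000044113 (ENSSSCT00000085474, chr1:56092155-56119311, plus strand, 3 exons, 6319 bases) stood at 0.717, 0.0787 and 0.194 FPKM in LT and at 4.71, 5.56 and 2.55 FPKM in ST (log2 fold change 3.57, SE 0.53, adjusted p = 0.0379). ENSSSCG00000047558 (ENSSSCT00000073357, chr1:56145803-56162313, plus strand, 4 exons, 5529 bases) stood at 0.0542, 0.0249 and 0.0367 FPKM in LT and at 1.03, 0.514 and 0.556 FPKM in ST. The latter passed the limit of 0.1 FPKM in ST alone, so its difference is given as a description. Both are on the same strand, and their nearest protein-coding gene, AKIRIN2, a nuclear factor, stood at 12.8 FPKM in LT and 16.5 FPKM in ST (log2 fold change 0.35, SE 0.21, adjusted p = 0.476).

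ENSSSCG00000050859 had the smallest adjusted p of the lncRNA genes. It has 4 member transcripts on the minus strand of chr11:76341389-76356165, overlaps RefSeq LOC110255857 and lies 206124 bp from MYO16, an unconventional myosin of neurons, with no protein-coding gene nearer. The sum stood at 0.210, 0.287 and 0.243 FPKM in LT and at 1.82, 1.43 and 2.20 FPKM in ST (log2 fold change 2.46, SE 0.26, adjusted p = 0.00871). All 4 transcripts had ST values above all LT values. ENSSSCT00000071529, ENSSSCT00000074737 and ENSSSCT00000068928 exceeded 0.1 FPKM in ST alone, so their differences are given as a description. They are part of the sum, so its difference and adjusted p are given as a description as well. ENSSSCT00000074705, which passed the limit in both muscles, had by itself a log2 fold change of 1.02 (SE 0.45, limma adjusted p = 0.528). The strongest contrast was in ENSSSCT00000071529, which stood at 0.0181, 0 and 0 FPKM in LT and at 0.742, 0.441 and 0.742 FPKM in ST, while the transcript with the most exons, ENSSSCT00000074705, stood at 0.128, 0.189 and 0.243 FPKM in LT and at 0.503, 0.255 and 0.775 FPKM in ST.

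The last of the 5 was ENSSSCG00000045139 (ENSSSCT00000079266, chr4:16568782-16570889, minus strand, 2 exons, 15770 bp from ZHX2, a transcriptional repressor). It stood at 0.537, 0.314 and 0.496 FPKM in LT and at 2.02, 5.23 and 2.14 FPKM in ST (log2 fold change 2.44, SE 0.38, adjusted p = 0.0415). Its highest value was in ST replicate 2, unlike that of ENSSSCG00000041566. ZHX2 stood at 3.57 and 4.09 FPKM in LT and ST (adjusted p = 0.669).

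Lower in ST was ENSSSCG00000045299 (ENSSSCT00000068163, chr17:35491750-35494485, minus strand, 2 exons, 1366 bases). It lies 5423 bp from MYLK2, the myosin light chain kinase of skeletal muscle. It stood at 6.02, 4.25 and 2.71 FPKM in LT and at 0.404, 0.391 and 0.640 FPKM in ST (log2 fold change -2.89, SE 0.32, adjusted p = 0.0115). The 3 ST libraries were close to one another, ST replicate 2 included. MYLK2 stood at 389, 333 and 316 FPKM in LT and at 83.6, 279 and 132 FPKM in ST (log2 fold change -1.25, SE 0.39, adjusted p = 0.172), with ST replicate 2 near LT.

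ENSSSCG00000047072 was the other. Its transcripts ENSSSCT00000073536 and ENSSSCT00000073892 (chr8:3764912-3769144, minus strand, 725 and 796 bases) lie 4519 bp from SORCS2, a sorting receptor. The sum stood at 4.24, 2.12 and 0.757 FPKM in LT and at 0, 0.216 and 0 FPKM in ST (log2 fold change -3.78, SE 0.64, adjusted p = 0.0496). ST replicates 1 and 3 were listed at 0 for both transcripts, and SORCS2 was at 0.146 and 0.0947 FPKM in LT and ST. ENSSSCT00000073892 exceeded 0.1 FPKM in LT alone and is part of the sum, so its share of the difference is a description.

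**Figure D5:**
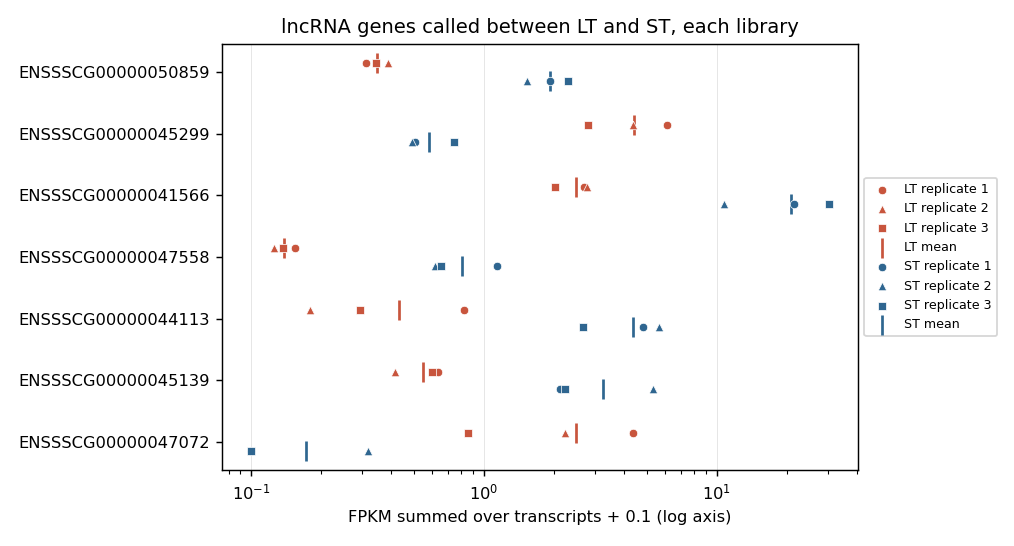
The 7 lncRNA genes called between the muscles, in order of p, with FPKM summed over member transcripts plus 0.1 in each library on a log axis (red LT, blue ST, symbols for the replicate numbers, vertical bars for muscle means). LT and ST do not overlap in any of the 7, with ENSSSCG00000045299 and ENSSSCG00000047072 lower in ST.

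Calls were mostly lost when 1 library was left out, among lncRNA genes as among all genes. Each such fit has 1 library fewer, and whether a single library carried a call was not tested. Leaving out any 1 library other than ST replicate 2 left 0 lncRNA genes called, and 0 to 4 of all 29108 genes. Leaving out ST replicate 2 left 6 lncRNA genes (2 higher in ST) and 200 of all genes (0.687%), and of the 7 genes ENSSSCG00000041566 (limma adjusted p = 0.0310) and ENSSSCG00000050859 (adjusted p = 0.0359) were among them. The direction of all 7 was the same in every such fit.

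Lists of protein-coding genes were then used to look at members near genes of muscle function, lists chosen with earlier results known. Of 41 contractile and fibre-type genes in the files, 9 had a member within 100000 bp, 14 members in all, with a median of 0.260 FPKM and 4 above 1 FPKM. None was called, and 3 had ST values above all LT values, with 0 the other way, against 9.87% and 6.44% of all transcripts.

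The most abundant of the 3 was ENSSSCT00000066501 (chr10:23824184-23827391, minus strand), 20101 bp from TNNI1, the slow troponin I gene, and on RefSeq PHLDA3. It stood at 4.59, 2.92 and 5.34 FPKM in LT and at 10.3, 10.6 and 25.8 FPKM in ST. TNNI1 stood at 587, 368 and 383 FPKM in LT and at 2325, 387 and 2494 FPKM in ST, with overlap (adjusted p = 0.276). CSRP1, a nearer gene at 15739 bp that encodes a LIM domain protein, stood at means of 2.48 and 7.28 FPKM (log2 fold change 1.49, SE 0.22, adjusted p = 0.0379). ENSSSCT00000069868 (chr5:82544777-82551837, minus strand) lies 5770 bp from MYBPC1, the slow myosin-binding protein C gene, and stood at 0.00715, 0 and 0.142 FPKM in LT and at 0.447, 0.923 and 0.797 FPKM in ST. MYBPC1 stood at means of 526 and 2172 FPKM (log2 fold change 2.02, SE 0.30, adjusted p = 0.0379), while CHPT1, only 513 bp away, stood at means of 20.9 and 11.4 FPKM (adjusted p = 0.108). The other members of this list went both ways. Near MYH7B (log2 fold change 2.76) theirs were 0.44, -0.52 and -0.03, and near MYOZ2 (3.07) it was -0.03. Values were -0.32 near TNNT1, -0.54 near XIRP2 and 0.68 near ACTN2, genes with a higher mean in ST. Near MYL1 (-1.85) they were 1.07 and 1.14. Near TNNT3 (-2.93) they were 1.83, 1.16 and -1.28.

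Of 27 genes on the list of myogenic regulators 6 had a member, 10 members in all, with a median of 1.32 FPKM and 7 above 1 FPKM. The 7 lay near MEF2C, NFIX and PPARA, the last a receptor of fatty acid oxidation that the list includes. ENSSSCT00000079197, ENSSSCT00000043059 and ENSSSCT00000087631 among them are transcripts of 1 gene, ENSSSCG00000035352, so the median leans on few loci. ENSSSCT00000056775 and ENSSSCT00000081386 start head to head with MEF2C, a transcription factor of muscle differentiation, at 595 and 600 bp. The former stood at 4.47, 5.06 and 4.001 FPKM in LT and at 7.38, 4.24 and 6.20 FPKM in ST. MEF2C stood at 25.5, 25.2 and 33.0 FPKM in LT and at 58.2, 27.6 and 48.2 FPKM in ST, so both had their lowest ST value in replicate 2. ENSSSCT00000081386 had its highest there, with 1.73, 1.37 and 0.590 FPKM in LT and 1.15, 2.86 and 0.929 FPKM in ST. ENSSSCT00000091580 (chr1:138254657-138258271, plus strand), 82882 bp from MEF2A, was the only member of this list without overlap. It stood at 0.302, 0.202 and 0.164 FPKM in LT and at 0, 0.0244 and 0.0102 FPKM in ST, and so passed the limit of 0.1 FPKM through LT alone.

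Of 38 genes of adipocytes and lipid metabolism 8 had a member, again 14 members, with a median of 0.273 FPKM and 2 above 1 FPKM. The values did not overlap for 3 members higher in ST and 1 lower, against 9.87% and 6.44% of all transcripts. ENSSSCT00000091640 and ENSSSCT00000082124, of 1 gene on chr6:87960572-87967975 (plus strand, RefSeq LOC110261129), lie on the strand opposite to FABP3 and about 9 kb from it, the gene of the fatty acid carrier of oxidative muscle. ENSSSCT00000091640 stood at 0, 0 and 0.151 FPKM in LT and at 1.30, 0.871 and 2.84 FPKM in ST (log2 fold change 3.55, SE 0.59, adjusted p = 0.156). ENSSSCT00000082124 stood at 0, 0.322 and 0.0979 FPKM in LT and at 5.58, 0.0643 and 9.24 FPKM in ST. In ST replicate 2 the second transcript was thus as low as in LT and the first was not. FABP3 stood at means of 132 and 1268 FPKM (log2 fold change 3.01, SE 0.48, adjusted p = 0.0433). Members near the other listed genes went both ways. Their log2 fold changes were -0.10, -0.65 and 0.32 near PNPLA2, 0.07 near CPT1A, -0.63 near CEBPB and -0.67 near ZFP36L1. They were 0.63, 0.72 and -0.52 near DGAT1, 0.38 near LIPE, and 1.54 and 0.42 near KLF15.

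GPAT3, an enzyme of triglyceride synthesis, was not on this list. ENSSSCT00000090735 (chr8:134887774-134893019, minus strand), 19472 bp from GPAT3, was named for its lack of overlap and its small p. The transcript stood at 0.0699, 0.0172 and 0.0756 FPKM in LT and at 0.614, 0.299 and 0.414 FPKM in ST. GPAT3 stood at means of 2.47 and 10.1 FPKM, with an adjusted p of 0.0697. In both rows every ST value exceeded every LT value, and the lncRNA passed the limit of 0.1 FPKM through ST alone.

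Of 70 patterning genes 13 had a member nearby, 8 members, none of them above 1 FPKM. The HOXC cluster, which sets position along the body axis, accounted for 3. ENSSSCT00000089262 (chr5:19206548-19209202, minus strand), which starts head to head with HOXC9 at 3703 bp, stood at 0.416, 0.636 and 0.660 FPKM in LT and at 0.242, 0.0407 and 0.147 FPKM in ST, while HOXC9 stood at means of 8.08 and 1.25 FPKM (log2 fold change -2.61, SE 0.20, adjusted p = 0.00277). HOXC10, nearer at 3578 bp, had the higher mean in ST, at 0.735 FPKM in LT and 3.13 FPKM in ST (log2 fold change 2.14, SE 0.41, adjusted p = 0.0667), and HOXC11 at 17525 bp was higher in ST (log2 fold change 4.05, SE 0.32, adjusted p = 0.00277). Outside the cluster, ENSSSCT00000067936 (chr14:51349864-51352862, minus strand), 53139 bp from TBX1, stood at 0.540, 0.557 and 0.433 FPKM in LT and at 0.115, 0.182 and 0.123 FPKM in ST.

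Members with LT values above all ST values also included a pair within RefSeq DMD, the dystrophin gene. ENSSSCT00000082080 (chrX:29482374-29624467) and ENSSSCT00000071622 (chrX:29471665-29475125), both on the minus strand, stood at 0.847, 1.26 and 0.649 FPKM and at 0.667, 1.03 and 0.754 FPKM in LT. In ST they stood at 0.0734, 0.303 and 0.0190 FPKM and at 0.0332, 0.308 and 0 FPKM. Both were highest in replicate 2 among the ST libraries, and neither was called (adjusted p = 0.287 and 0.308).

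No member was listed at 0 throughout 1 muscle and above 0.1 FPKM in every library of the other. With 0.1 FPKM as the limit for both muscles, 13 members passed in all 3 LT libraries and in no ST library, and 19 the other way. In LT 13 members were listed at 0 in all 3 libraries and in ST 15, and 0 of either were above 0.1 FPKM in all 3 libraries of the other muscle. Their highest libraries had medians of 0.144 and 0.135 FPKM. Among the 183 members with a mean above 1 FPKM, 20 did not overlap and were higher in ST and 20 were lower, 21.9% together, against 24.1% of all transcripts above 1 FPKM. The median coefficient of variation between the 3 libraries of a muscle, for transcripts above 1 FPKM, was 31.1% for members and 25.4% for annotated mRNAs. The number of fragments on each transcript was not used here, so the counting error behind single values is unknown.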

How the data were processed

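LT and ST muscles of 3 pigs gave 6 libraries, 3 per muscle, grouped by the muscle in the labels. The authors filtered reads (SOAPnuke), aligned them by HISAT2 2.1.0 to the Sus scrofa 11.1 genome and assembled and quantified transcripts with StringTie, and the deposited values are FPKM per transcript, with class, position, exon number and spliced length taken as they stand. The library kit was directional, and the strand setting of the quantification is not given in the sources used here. FPKM keeps no fragment counts, so no count model, interval or depth was computed. The members and gene lists were chosen with earlier results of these data known.

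LT and ST were compared with limma 3.58.1 (R 4.3.3; lmFit and eBayes with trend) on log2(FPKM + 0.1), ST minus LT, in 1 fit over all 52102 transcripts above 0.1 FPKM in any library, and in 1 fit over 29108 genes with FPKM summed over their transcripts, with Benjamini-Hochberg adjustment. The fits were tested on simulated data. Values per library were compared with 2-sided exact permutation tests. The main fit had no block, and the fit with the replicate number as a block was an alternative.

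Distances run between outer ends, to protein-coding genes of the files. Symbols came from a table of gene identifiers for 14657 of 20288 protein-coding genes and by position from RefSeq for 2213. The gene nearest to 1 abundant locus is not reported here. Genes named were the 15 most abundant members, the 12 higher and 12 lower members without overlap and with the smallest p, the most abundant near each gene list, the longest and those with most exons, miRNA hosts, those at the limit and genes with 3 or more transcripts, with the called lncRNA genes, 1 more of their transcripts (ENSSSCT00000074705), ENSSSCT00000073142 and the MIR155 host added after their values were seen. Python 3.11.15 with pandas 2.3.3, numpy 2.4.6, scipy 1.17.1 and matplotlib 3.10.9 did the rest. Alternatives were other pseudocounts, filters, scalings, windows, a replicate block, no variance trend and leaving out each library.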

Additional observations from a re-analysis of the deposited data

How the results depend on the processing

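The 0 calls among single members became 1 when 3 libraries had to exceed 0.1 FPKM (ENSSSCT00000071529, adjusted p = 0.0436) and ranged from 0 to 1 on leaving out 1 library. ENSSSCT00000071529 exceeded 0.1 FPKM in ST alone, so it met this filter only through the muscle where it was higher. Its call is therefore given as a description. The 95 members at unadjusted limits became 25 with a pseudocount of 1 and 43 with a limit of 1 FPKM, and ranged from 65 to 128 on leaving out 1 library. The 7 called lncRNA genes (of 136 genes called in all) became 11 (of 300 in all) when rescaled to nuclear transcripts, 4 (of 76) with a pseudocount of 1, 4 (of 73) after quantile normalization, 3 (of 40) with a limit of 0.1 FPKM in 3 libraries, 3 (of 102) with a limit of 1 FPKM, 1 (of 16) without the variance trend, 0 (of 2) with no filter, and from 0 to 6 on leaving out 1 library. The direction of the 7 was kept wherever they were tested (6 of them at a limit of 1 FPKM). With the replicate number as a block 53 lncRNA genes were called (28 higher in ST), the 7 among them, and 1083 of all genes (3.72%), while transcripts called fell from 76 to 2 and members called were 0 in both fits. Whether equal numbers mark 1 pig is not stated: deviations from the muscle means correlated at 0.0833, 0.0723 and 0.0914 for equal numbers and from -0.0512 to -0.0316 for others, so each sample correlated best with its own number, a hint from the data and not the design. Quantile normalization shifted the median log2 fold change of all transcripts from 0.09 to -0.01, and rescaling to nuclear transcripts to 0.17. The median level of members was 0.168 FPKM in LT and 0.187 FPKM in ST, against 0.0702 and 0.0782 FPKM with no filter and 0.283 and 0.293 FPKM with 3 libraries required. Members carried 5.72% of nuclear FPKM in LT and 3.87% in ST, against 0.642% and 0.753% without the most abundant transcript, and 3.33% in ST with mitochondrial transcripts in the denominator. A protein-coding gene was near 1069 members, 953 with a window of 50000 bp and 631 with a window of 10000 bp. The causes of these shifts were not tested. FPKM alone leaves the depth behind low values unknown.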
